A study of Mus musculus with 4 samples.

Results

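The mTORC1 pathway genes described here are 9 genes taken by Ensembl ID, out of 53465 IDs counted: Mtor, Rptor, Mlst8, Rheb, Tsc1, Tsc2, Rps6kb1, Eif4ebp1 and Eif4ebp2. They were measured by RNA immunoprecipitation and sequencing (RIP-seq) with an antibody to YTHDF1 in Hepa 1-6, a cell line from a murine hepatocellular carcinoma. The 4 groups, of 1 library each, were the YTHDF1 RIP of cells with a guide RNA for Usp5 (sgUsp5), the RIP of cells with a control guide (sgcontrol), the input lysate of sgUsp5 cells and the input lysate of sgcontrol cells. Per the labels, the sgUsp5 cells are a Usp5 knockdown and the sgcontrol cells are wild type. All groups come from the same parent line. Whether the cells with a guide were 1 clone or a pool is not given in the sources used here. The sgUsp5 and sgcontrol cells are called the 2 lines below. All 9 genes had reads in every library and passed the filter on low counts, a mean of 1 CPM (reads per gene scaled to the size of the library) or more, as did 12920 IDs in all.

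The mechanistic target of rapamycin complex 1 (mTORC1) is a protein kinase complex at the lysosome that couples growth factors and amino acids to protein synthesis. Its catalytic subunit mTOR works with RAPTOR, which recruits substrates, and with MLST8. The GTPase RHEB activates the kinase, and the TSC1 and TSC2 proteins hold RHEB in its inactive form. Among the substrates, S6 kinase 1 (Rps6kb1) promotes translation when phosphorylated, while the 4E-BP proteins (Eif4ebp1, Eif4ebp2) bind the cap-binding factor eIF4E and release it on phosphorylation. YTHDF1 is a cytosolic reader protein of the mRNA mark N6-methyladenosine. The title of the series names mTORC1-mediated phosphorylation beside USP5 and YTHDF1; the files measure RNA, so neither phosphorylation nor protein was measured here.

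The libraries held between 29898171 and 33941019 counts. Levels are given as CPM after scaling with TMM factors, which lay between 0.926 and 1.06. RNA per cell and the makeup of the cell population cannot be told apart in such bulk libraries. With 1 library per group, no test was made between the guides within a fraction, or of RIP over input within a line. A difference is counted there when it is at least 2-fold and its 95% counting interval excludes no difference. Such intervals cover counting error only, and PCR copies without molecular identifiers are not independent molecules. Between the inputs, the scatter of counts was estimated at 64.7 times the binomial variance, and between the RIP libraries at 18.8 times. The estimate takes the median ratio of squared deviation to binomial variance over genes at a log2 CPM between 0 and 6. This median was divided by the median of a chi-square distribution with 1 degree of freedom. An interval widened by these values is therefore given where a result turns on it. At a log2 CPM between 6 and 8, where 4 of the members lie (Mtor, Rptor, Tsc1 and Eif4ebp2), the scatter was 38.1 times the binomial variance between RIP libraries and 88.5 times between inputs, and intervals of these 4 genes are widened by them. Scatter of this size includes any change with the guide. The IDs of Usp5, Ythdf1, liver cell markers and other pathway genes were not paired with symbols here, so the knockdown, the cell type and the rest of the pathway were not analysed.

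On GRCm38.p6, the RefSeq coordinates of the kinase complex genes are chr4:148448582-148557685 for Mtor, chr11:119602905-119899591 for Rptor and chr17:24473550-24479114 for Mlst8. Rheb lies at chr5:24802823-24842361, Tsc1 at chr2:28640993-28691172 and Tsc2 at chr17:24595816-24632676. Rps6kb1 lies at chr11:86498869-86544885, Eif4ebp1 at chr8:27260327-27275656 and Eif4ebp2 at chr10:61428491-61452790. The spans of 5 of the 9 genes overlap another annotated gene. Mtor overlaps Angptl7, a snRNA gene and a pseudogene, Rptor overlaps the non-coding gene Rptoros, Mlst8 overlaps Bricd5 by 1922 bases, Tsc2 overlaps Pkd1 by 699 bases and Rps6kb1 overlaps Rnft1 by 139 bases. The handling of strand in the counting is not given in the sources used here, so reads in these overlaps could belong to either gene. Counts are not divided by transcript length, so each gene is compared with itself across libraries and not with the other genes.

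The promoters of Rheb and Mlst8, the members furthest higher in the sgUsp5 input, and of Eif4ebp2, the member lower there, are shown 5′ to 3′ on the gene's strand (GRCm38.p6). RefSeq windows of 250 bases before 1 annotated start per gene were used. For Mlst8 36 bases and for Eif4ebp2 121 bases of the window lie inside the gene's annotated span, which reaches further upstream, and are left out here. These genes were picked for display after their values were seen. Capitals mark matches, on either strand, to the E-box CACGTG, the GC box GGGCGG, the letters CCAAT of the box named for them and the TATA box, spelled TATAAA.
Rheb (chr5:24842362-24842611, minus strand): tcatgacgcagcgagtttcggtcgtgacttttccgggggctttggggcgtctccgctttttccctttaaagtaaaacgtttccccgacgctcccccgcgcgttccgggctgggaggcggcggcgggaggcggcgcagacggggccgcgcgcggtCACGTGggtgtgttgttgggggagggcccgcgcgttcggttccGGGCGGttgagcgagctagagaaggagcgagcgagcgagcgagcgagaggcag
Mlst8 (chr17:24479115-24479328, minus strand): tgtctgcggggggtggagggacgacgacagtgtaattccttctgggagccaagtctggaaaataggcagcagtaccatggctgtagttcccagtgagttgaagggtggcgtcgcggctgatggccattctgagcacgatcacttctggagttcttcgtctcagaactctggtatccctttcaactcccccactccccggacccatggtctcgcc
Eif4ebp2 (chr10:61452791-61452919, minus strand): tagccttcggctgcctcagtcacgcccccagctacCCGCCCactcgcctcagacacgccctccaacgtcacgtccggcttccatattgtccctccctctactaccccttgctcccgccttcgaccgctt
The Rheb window held 1 E-box and 1 GC box, the Eif4ebp2 window held 2 GC boxes, of which 1 is in the bases shown, and the Mlst8 window held none of these letters. Of 32851 mouse promoter windows of this length, 6.02% held the E-box, 32.7% the GC box, 33.8% the CCAAT box and 12.4% the TATA box. Among the 8 members with a window in the table, 1 held an E-box, 3 a GC box, 1 a CCAAT box and 0 a TATA box. These matches describe letters and say nothing of a bound factor.

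The first question was which of these mRNAs were recovered with the YTHDF1 antibody relative to input. Rptor, Tsc1, Tsc2 and Eif4ebp2 were called enriched in the RIP over both lines, by 0.79 to 1.02 on the log2 scale. Eif4ebp1 lay at 0.67 and was not called. Mtor, Mlst8 and Rps6kb1 lay within 0.19 of 0 over both lines, with Mlst8 at -0.36 in sgUsp5 cells and 0.55 in sgcontrol cells. The TMM scaling sets the 0, so a value there means recovery near that of most genes. Rheb had fewer reads in the RIP than in the input of each line. The test was edgeR's quasi-likelihood test over the 4 libraries with the line as a block and 1 residual degree of freedom, with Benjamini-Hochberg adjustment over 12920 genes. The test called 4 of 9 members enriched at an adjusted p under 0.05, beside 10.2% of all genes, and 0 of 9 depleted, beside 11.3%. With a mean of at least 5 CPM required, 1667 of 9923 genes were enriched and 1755 depleted, among them 4 and 1 of the members. Shares in the members' own range of levels were not computed for this test. At the filter of 1 CPM the unadjusted p was under 0.05 for 6 members, of which 1 (Rheb) was lower in the RIP, and for 4363 of all genes. DESeq2 with the same terms also called 4 members enriched, beside 1361 of all genes, and 0 depleted, beside 1476. The median log2 ratio was 0.67 over the members and 0.08 over all genes compared. RNA held by the antibody and RNA held by the beads cannot be told apart, since no mock precipitate was used here.

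**Figure D1:**
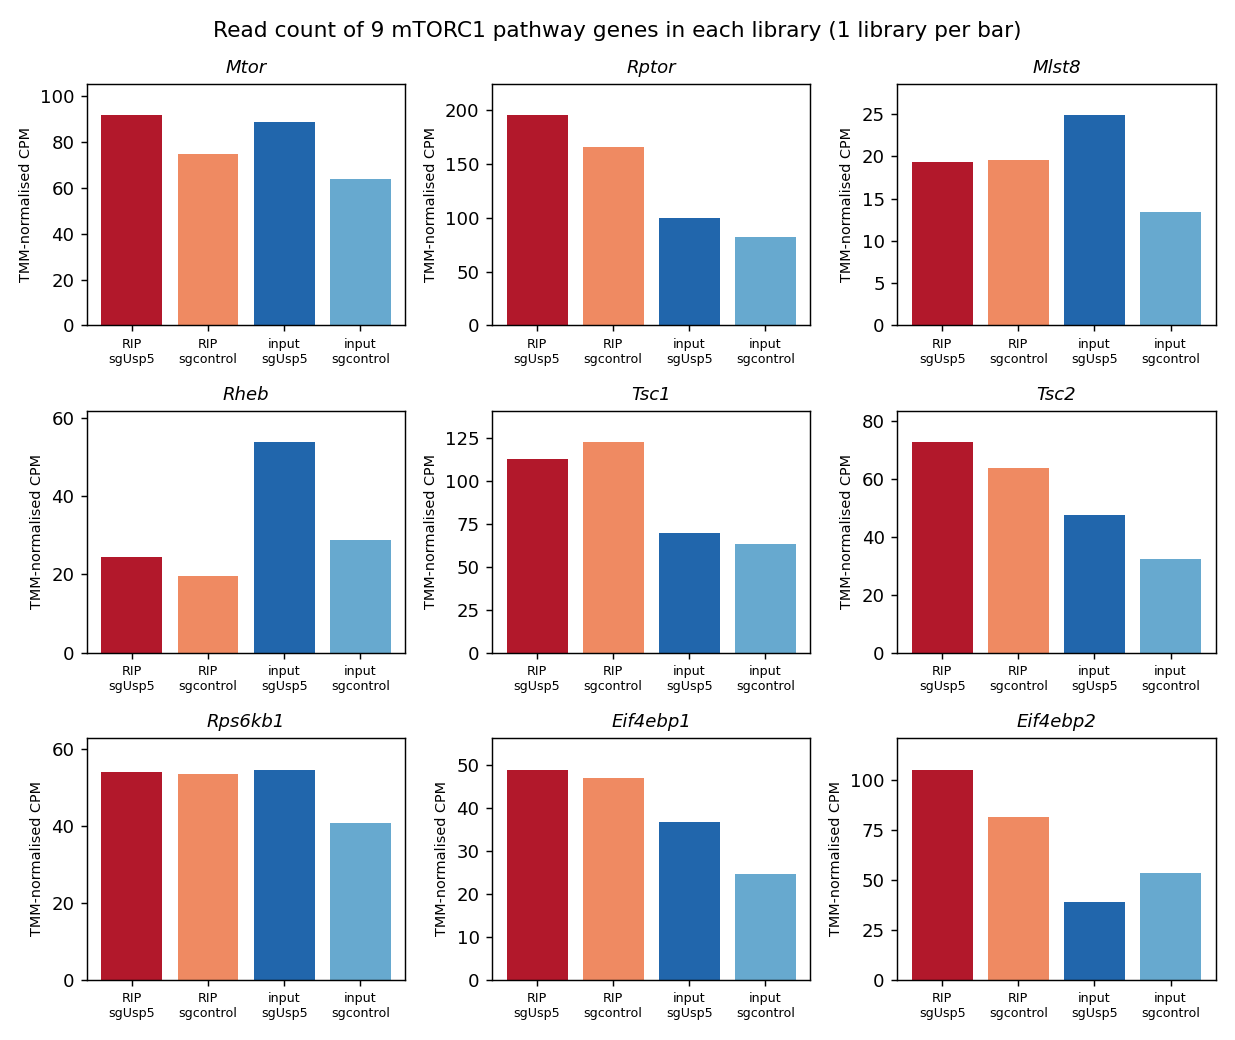
TMM-normalised CPM (linear axis from 0, scaled for each gene) of the 9 genes, 1 bar per library, with no error bars because each group is 1 library. The RIP bar stands above the input bar of the same line in both lines for 6 of 9 genes, beside 37.3% of all genes. For 1 gene, Rheb, it stands below in both lines, beside 35.0%.

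Of the 3 subunit genes of the kinase complex, Rptor alone was called enriched over both lines. Whether recovery differed between these genes was not tested. Rptor (ENSMUSG00000025583), which encodes the substrate-recruiting subunit, had 195 CPM in the sgUsp5 RIP and 99.9 CPM in the sgUsp5 input, and 166 CPM in the sgcontrol RIP and 82.4 CPM in the sgcontrol input. Rptor had 6195 and 5930 reads in the sgUsp5 and sgcontrol RIP against 3074 and 2351 in the inputs. Its RIP over input was 1.96-fold in sgUsp5 cells (log2 0.97, counting interval 0.91 to 1.03) and 2.02-fold in sgcontrol cells (log2 1.01, 0.94 to 1.08), so that it met the 2-fold rule in sgcontrol cells and fell just short of it in sgUsp5 cells. Over both lines its log2 ratio was 0.99 (edgeR adjusted p = 0.00208), higher in the RIP in 2 of 2 lines.

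Mtor (ENSMUSG00000028991), the gene of the kinase itself, had 91.6 CPM in the sgUsp5 RIP and 88.6 CPM in the sgUsp5 input, and 74.6 CPM in the sgcontrol RIP and 63.8 CPM in the sgcontrol input. The RIP and input values lay close together within each line, with log2 ratios of 0.05 (-0.03 to 0.12) and 0.23 (0.14 to 0.31) in sgUsp5 and sgcontrol cells (edgeR adjusted p over both = 0.678). Mlst8 (ENSMUSG00000024142), the gene of the small subunit that mTORC1 shares with mTORC2, had 19.3 CPM in the sgUsp5 RIP and 24.9 CPM in the sgUsp5 input, and 19.6 CPM in the sgcontrol RIP and 13.4 CPM in the sgcontrol input. Its RIP values nearly coincided, and the inputs lay on either side of them. RIP over input was thus -0.36 (-0.52 to -0.21) in sgUsp5 cells and 0.55 (0.37 to 0.73) in sgcontrol cells, of opposite sign. The widened intervals, -1.31 to 0.58 and -0.66 to 1.76, both include 0.

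Rheb (ENSMUSG00000028945), the GTPase gene, was the only member with log2 RIP over input below 0 in both lines. It had 24.4 CPM in the sgUsp5 RIP and 53.7 CPM in the sgUsp5 input, and 19.6 CPM in the sgcontrol RIP and 28.7 CPM in the sgcontrol input. The sgUsp5 input stood well above the rest. RIP over input was 2.20-fold lower in sgUsp5 cells (log2 -1.14, counting interval -1.26 to -1.02, widened -1.84 to -0.43) and 1.46-fold lower in sgcontrol cells (log2 -0.55, -0.70 to -0.40, widened -1.46 to 0.35). Over both lines the log2 ratio was -0.85, which missed the threshold of edgeR's test (adjusted p = 0.0575). It passed with DESeq2 size factors (adjusted p = 0.0489) and with the filter raised to a mean of 5 CPM (0.0289), and with the other settings run the adjusted p reached 0.13.

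The genes of the inhibitory complex, Tsc1 (ENSMUSG00000026812) and Tsc2 (ENSMUSG00000002496), were both called enriched in the test over both lines. Tsc1 had 112 CPM in the sgUsp5 RIP and 69.7 CPM in the sgUsp5 input, and 122 CPM in the sgcontrol RIP and 63.2 CPM in the sgcontrol input. Tsc2 had 72.5 CPM in the sgUsp5 RIP and 47.5 CPM in the sgUsp5 input, and 63.6 CPM in the sgcontrol RIP and 32.4 CPM in the sgcontrol input. Both genes had ratios above 0 in both lines, as did 37.3% of all genes. The log2 enrichments of Tsc1 were 0.69 (0.61 to 0.77) in sgUsp5 and 0.95 (0.87 to 1.03) in sgcontrol cells, and those of Tsc2 were 0.61 (0.52 to 0.71) and 0.97 (0.86 to 1.08) in the same order. The widened intervals of Tsc1 were 0.05 to 1.33 in sgUsp5 and 0.28 to 1.63 in sgcontrol cells. For Tsc2 the widened interval was -0.03 to 1.25 in sgUsp5 cells, which includes 0, and 0.19 to 1.75 in sgcontrol cells. In edgeR's test the adjusted p was 0.0113 for Tsc1 and 0.0319 for Tsc2. Without the block Tsc2 lost its call (adjusted p = 0.0727).

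Of the substrate genes, Eif4ebp2 (ENSMUSG00000020091) was enriched while Rps6kb1 (ENSMUSG00000020516) and Eif4ebp1 did not pass the test. Eif4ebp2 had 105 CPM in the sgUsp5 RIP and 39.1 CPM in the sgUsp5 input, and 81.6 CPM in the sgcontrol RIP and 53.2 CPM in the sgcontrol input. It had 3330 reads in the sgUsp5 RIP against 1203 in the sgUsp5 input. Its enrichment was 2.69-fold in sgUsp5 cells (log2 1.43, counting interval 1.33 to 1.52, widened 0.61 to 2.24) and 1.53-fold in sgcontrol cells (log2 0.62, 0.53 to 0.71, widened -0.13 to 1.36), with an edgeR adjusted p of 0.0131 over both lines.

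Its paralog Eif4ebp1 (ENSMUSG00000031490) had 48.9 CPM in the sgUsp5 RIP and 36.7 CPM in the sgUsp5 input, and 46.9 CPM in the sgcontrol RIP and 24.6 CPM in the sgcontrol input. Its log2 RIP over input was 0.41 (0.30 to 0.53) in sgUsp5 and 0.93 (0.80 to 1.06) in sgcontrol cells. The adjusted p in edgeR's test was 0.0953. Rps6kb1 had 53.9 CPM in the sgUsp5 RIP and 54.6 CPM in the sgUsp5 input, and 53.5 CPM in the sgcontrol RIP and 40.8 CPM in the sgcontrol input. The sgcontrol input was the low library and the other 3 nearly coincided, giving log2 enrichments of -0.02 (-0.12 to 0.08) and 0.39 (0.29 to 0.50) in sgUsp5 and sgcontrol cells (edgeR adjusted p = 0.638).

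**Figure D2:**
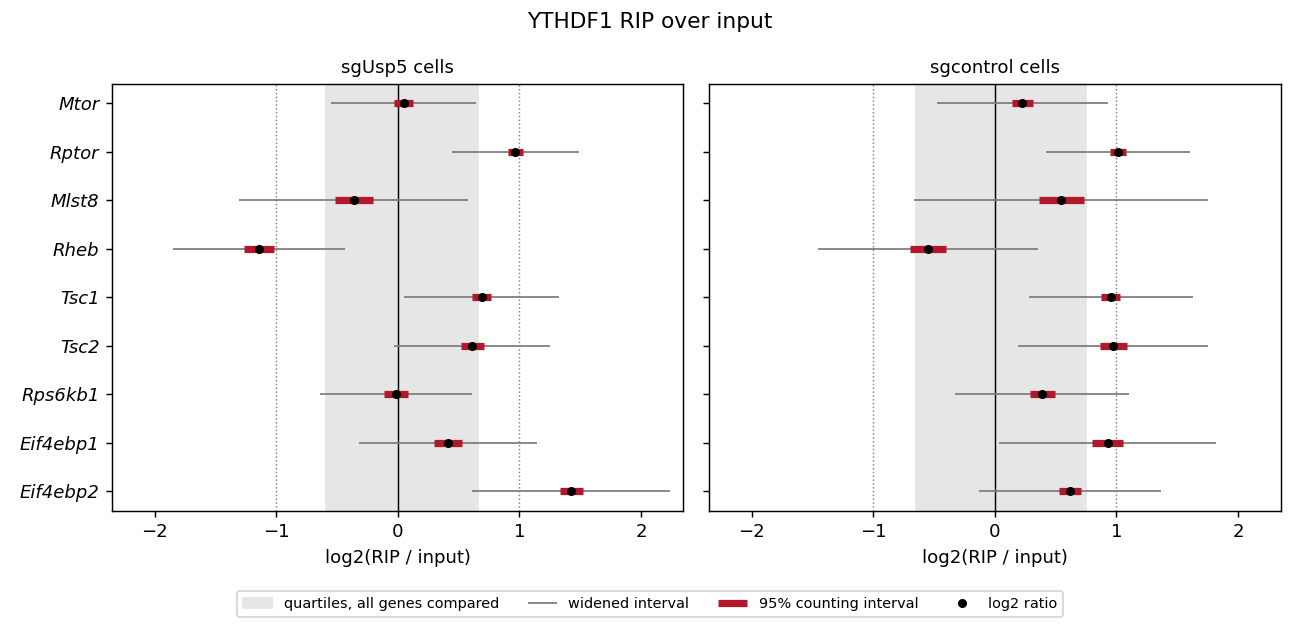
Log2 RIP over input of each gene in sgUsp5 cells (left) and sgcontrol cells (right). Points are the ratios of 1 library pair, thick bars the 95% counting intervals, thin bars the intervals widened by the scatter between libraries, the grey band the quartiles over all genes compared, and dotted lines mark 2-fold. Eif4ebp2 lies past 2-fold and Rheb past 2-fold the other way in sgUsp5 cells, and Rptor in sgcontrol cells.

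By the 2-fold rule within a line, 1 of 9 members was enriched in sgUsp5 cells (Eif4ebp2), beside 15.9% of all genes, and 1 was depleted (Rheb), beside 13.7%. In sgcontrol cells 1 of 9 was enriched (Rptor), beside 18.4%, and 0 of 9 were depleted, beside 15.0%. Among the 4932 genes with mean levels in the range of the members (log2 CPM 4.27 to 7.09) the shares were 8.56% enriched and 8.37% depleted in sgUsp5 cells and 11.6% and 10.9% in sgcontrol cells. The members' shares are near these. In sgcontrol cells Tsc2, Tsc1 and Eif4ebp1 fell short of the rule by little, at 1.96-, 1.94- and 1.90-fold. The member median was 0.41 in sgUsp5 cells and 0.62 in sgcontrol cells, against 0.02 and 0.03 over all genes in the same order. Of the 9 genes, 6 had ratios above 0 in both lines (37.3% of all genes), 1 below 0 in both (35.0%) and 2 of opposite sign (27.8%). The sign of 1 of these 2, Rps6kb1 in sgUsp5 cells (log2 -0.02), changed with upper-quartile factors and with library totals. With library totals in place of TMM, the median over all genes moved to 0.15 in sgUsp5 and 0.21 in sgcontrol cells, and the member medians to 0.54 and 0.80.

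**Figure D3:**
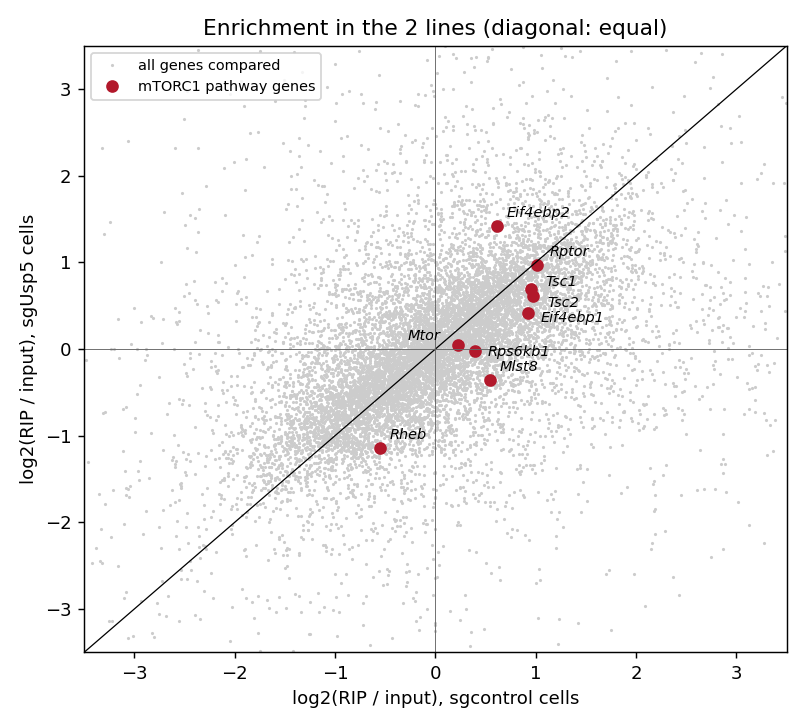
Log2 RIP over input in sgUsp5 cells (vertical) against sgcontrol cells (horizontal); red points are the 9 genes, grey points all genes compared (1123 lie outside the plotted range of -3.5 to 3.5), and the line marks equal values. Eif4ebp2 lies above the line and the other 8 genes on or below it.

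The next comparison asked whether the abundance of these mRNAs differed between sgUsp5 and sgcontrol cells, from the inputs. Rheb and Mlst8 had the highest ratios and Eif4ebp2 the lowest, but none of the 9 reached 2-fold in either direction, beside 12.4% of all genes higher and 12.1% lower by the same rule. Among the genes in the members' range of levels these shares were 2.45% and 2.49%, so 0 of 9 is near that background. Rheb had 1653 reads in the sgUsp5 input and 819 in the sgcontrol input, a 1.87-fold difference (log2 0.90, counting interval 0.78 to 1.03, widened -0.05 to 1.86). Mlst8 had 765 reads in the sgUsp5 input and 382 in the sgcontrol input, 1.86-fold (log2 0.89, 0.71 to 1.07, widened -0.48 to 2.27). The widened interval included 0 for both.

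Eif4ebp2 was the only member with a lower count in the sgUsp5 input, 1203 reads against 1517 in the sgcontrol input (log2 -0.44, counting interval -0.55 to -0.33, widened -1.45 to 0.57). The other 6 members had log2 ratios between 0.14 (Tsc1) and 0.58 (Eif4ebp1). Those of Tsc2, Mtor, Rps6kb1 and Rptor were 0.55, 0.47, 0.42 and 0.28. The median over the members was 0.47, against -0.01 over all genes, whose quartiles were -0.44 and 0.44. Among the genes in the members' range of levels the SD of this ratio was 0.51, and the ratios of Rheb and Mlst8 lay above their 95th percentile (0.82).

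Between the RIP libraries the members lay closer together. Eif4ebp2 had the highest ratio there, with 3330 reads in the sgUsp5 RIP and 2910 in the sgcontrol RIP (log2 0.37, counting interval 0.29 to 0.44, widened -0.08 to 0.81). Rheb followed with 773 reads in the sgUsp5 RIP and 699 in the sgcontrol RIP (log2 0.32, 0.17 to 0.47, widened -0.32 to 0.95). Mtor and Rptor had log2 ratios of 0.30 and 0.23, and Tsc2 of 0.19. Tsc1 had the lowest, -0.12 (-0.19 to -0.06), and the counting intervals of Mlst8 (-0.02), Rps6kb1 (0.01) and Eif4ebp1 (0.06) included 0. None of the 9 reached 2-fold, beside 4.55% of all genes higher and 4.64% lower, and 0.243% and 0.324% of the genes in the members' range of levels. The SD of the ratio in that range was 0.30. The median was 0.19 over the members and -0.01 over all genes. For 9 of 9 members the input ratio lay further from 0 than the RIP ratio, as it did for 68.3% of all genes.

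A test of the guide over both fractions was added after the data were seen, with edgeR's quasi-likelihood test and the fraction (RIP or input) as a block. The RIP and the input of each line came from 1 lysate, so its p-values measure how alike the guide ratios were in the 2 fractions and not the spread between cultures. It called 0 of 9 members higher, beside 0.00% of all genes, and 0 of 9 lower, beside 0.0232% (3 genes). The unadjusted p was under 0.05 for 0 members and for 612 of all genes. Rheb had the highest log2 ratio over both fractions, 0.61, higher in sgUsp5 cells in 2 of 2 fractions (edgeR adjusted p = 0.942), and Eif4ebp2, whose fractions went opposite ways, had -0.04 (adjusted p = 0.993).

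**Figure D4:**
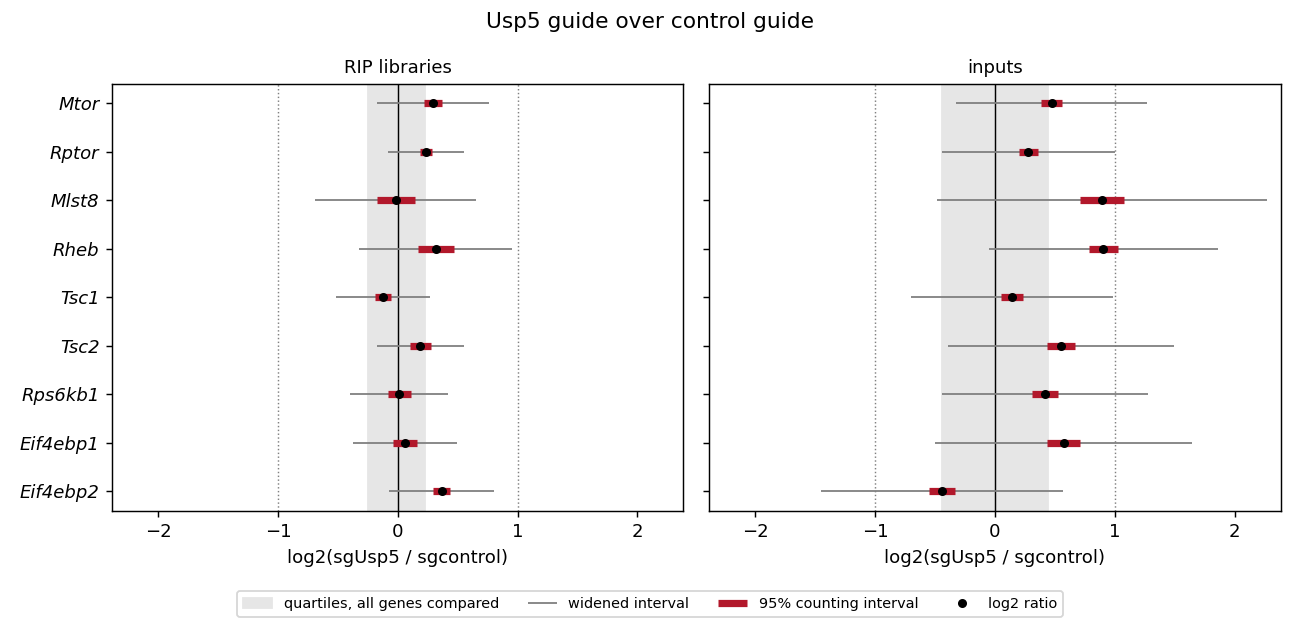
Log2 ratio of sgUsp5 over sgcontrol for each gene in the RIP libraries (left) and in the inputs (right), drawn with the same symbols as the plot of RIP over input. In the inputs 8 of 9 points lie above 0, beside 49.4% of all genes, and in the RIP libraries the points lie between -0.12 and 0.37.

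Whether recovery with YTHDF1 differed between the lines was described by the ratio of the enrichments, sgUsp5 over sgcontrol. This ratio uses the same 4 libraries as the comparisons above, so it restates them. It was above 1 for Eif4ebp2 alone, at 1.75-fold (log2 0.81, counting interval 0.68 to 0.94, widened -0.29 to 1.91). For the other 8 members it was below 1, with log2 values between -0.91 for Mlst8 (-1.15 to -0.67, widened -2.44 to 0.62) and -0.04 for Rptor (-0.14 to 0.05). Of all genes, 49.7% had a ratio above 1. Rheb stood at -0.59, Eif4ebp1 at -0.51, Rps6kb1 at -0.41, Tsc2 at -0.36, Tsc1 at -0.26 and Mtor at -0.18. None of the 9 reached 2-fold, beside 13.3% of all genes higher and 13.8% lower, and 3.61% and 3.30% of the genes in the members' range of levels. The member median was -0.36, against -0.01 over all genes. In each of the 9 genes the guide ratio of the inputs lay further from 0 than that of the RIP libraries, as in 68.3% of all genes. The widened interval of Eif4ebp2 and Mlst8, the furthest on either side, included 0.

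Across the 4 libraries the most alike members were Tsc2 and Eif4ebp1, with a distance of 0.15 between their centred log2 CPM values. The least alike were Rheb and Eif4ebp2, at 2.1. These distances rest on 4 libraries and are a description.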

How the data were processed

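RNA of 4 Hepa 1-6 libraries was analysed: YTHDF1 RIP and input of sgUsp5 and sgcontrol cells. Per the labels' protocols, 10% of the lysate was kept as input, RNA was depleted of ribosomal RNA and cDNA was made with random primers and amplified by PCR. The authors deposited raw read counts per Ensembl ID; HISAT2 2.1.0, featureCounts 1.6.3 and the mm10 build are named per the submitters' processing notes. For the annotation release, strand and duplicates the handling is not given in the sources used here; 0 columns of single samples were left unused. The reference table (GRCm38.p6) paired 0 IDs, so symbols come from the definition of the gene set, and coordinates were matched by symbol. All 9 genes are named. The genes and tests were chosen with earlier results of these data known.

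The filter was a mean of at least 1 CPM per library total. Log2 ratios used TMM factors with 0.5 counts added. Intervals were Clopper-Pearson (95%) on the split of reads, or the sum of reciprocal counts for the ratio of enrichments. RIP was tested against input with edgeR 4.0.16 (R 4.3.3, quasi-likelihood, line as block), which treats the lines as replicates. Its p-values thus measure the spread between these libraries, which may be technical and includes any difference in RIP over input between the guides. DESeq2 1.42.0 and other normalisations and filters were alternatives. The code was tested on simulated data with 4-fold changes. For the 2-fold rule the simulated reads had no scatter beyond counting error, unlike these libraries. For edgeR's test a dispersion of 0.02 was set. The simulation thus gives no error rate for the calls made here. Widened intervals divided counts by the measured scatter. The guide was also tested over both fractions.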

Additional observations from a re-analysis of the deposited data

Results flagged for a closer look

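For 3 genes, 2 ratios under the same contrast had opposite signs with counting intervals that excluded 0, and these differences were not tested, as each group is 1 library. For Mlst8, log2 RIP over input was -0.36 in sgUsp5 cells and 0.55 in sgcontrol cells, a difference of -0.91. For Eif4ebp2, log2 sgUsp5 over sgcontrol was 0.37 in the RIP libraries and -0.44 in the inputs, a difference of 0.81. For Tsc1 the same ratio was -0.12 in the RIP libraries and 0.14 in the inputs, a difference of -0.26. These ratios share libraries, and the widened intervals of all 3 differences included 0.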

How the results depend on the processing

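With library totals in place of TMM factors, 2 members in sgUsp5 cells and 4 in sgcontrol cells were at least 2-fold enriched, where TMM gave 1 in each, and every RIP over input moved up with the median of all genes. With DESeq2 size factors 0 members were enriched 2-fold in sgcontrol cells, since Rptor lay at the boundary. The shares of all genes by this rule were not computed with either setting. In edgeR's test over both lines, requiring 2-fold as well left 1 enriched member, Eif4ebp2, and the share of all genes was not computed. In the same test 1 depleted member, Rheb, was called with DESeq2 size factors, and 1, again Rheb, with a mean of at least 5 CPM. Without the line as a replicate block edgeR's test called 3 members enriched (Tsc2 at an adjusted p of 0.0727) and 1020 of all genes. With the block it called 4 members and 1321 genes enriched. DESeq2 with the same terms called 4 members and 1361 genes enriched. The other 98 counts of members recomputed stayed within 1.5 times. Among them were all counts for the guide and for the ratio of enrichments, which were 0 under each setting. The filter could not move a ratio, since the factors were computed before it. No called ratio of a member changed sign. The uncalled log2 RIP over input of Rps6kb1 in sgUsp5 cells, -0.02 with TMM, was 0.004 with upper-quartile factors and 0.11 with library totals. The guide ratio of Mlst8 in the RIP libraries, -0.02 with TMM, was 0.002 with DESeq2 size factors. The test of the guide with the fraction as a replicate block, added after the data were seen, called 0 members under each normalisation and with a mean of at least 5 CPM. The wider scatter above a log2 CPM of 6 was also measured after the data were seen, and it moved the widened interval of Eif4ebp2 between the RIP libraries to -0.08 to 0.81, against 0.05 to 0.68 with the scatter of less abundant genes. Each of the 9 genes had at least 382 reads in every library, and the scatter between libraries widened the intervals more than depth did.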
